A study of Mus musculus with 5 samples.

Results

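The genes described here are 10 transcriptional regulators of glia and myelin, chosen by name with earlier results of these data known. These are Nfia, Nfib, Nfix, Zeb2, Myrf, Myt1, St18, Zfp488, Zfp536 and Zfp24. They are 10 of the 21703 mouse genes with a protein-coding transcript on chromosomes 1 to 19 and X. A peak is a stretch of the genome where reads from the immunoprecipitate pile up, as called by the authors. For each gene, every peak was taken whose centre lay within 100 kb of one of its transcript starts (GENCODE M21, the basic set of well-supported transcripts) or inside the gene body. This gave 12 of 4643 peaks in oligodendrocyte progenitor cells (OPC) and 9 of 1752 in differentiated oligodendrocytes (OLG). The peaks come from chromatin immunoprecipitation sequencing (ChIP-seq) of ZFP24, the DNA-binding protein also called ZFP191 in mouse and ZNF24 in human. Wild-type C57BL/6 OPC were obtained by immunopanning of brain at postnatal day 7, and OLG by differentiating such cells over 5 days, with PDGF withdrawn and 40 ng/ml triiodothyronine added. The other groups were Zfp191-null OPC and Zfp191-null OLG of the same strain and age, and input DNA of wild-type and null OPC and OLG in one pool. Each group was 1 library, and how many animals were pooled for it is not stated in the labels. The lists were assigned to wild-type OPC and OLG from the sample descriptions, which name the same list for the null sample of each cell type. They give positions only, with no read count, height or score, so depth is unknown, signal in the controls was not analysed here, and the identity of the cells could not be checked against marker genes. No test between OPC and OLG was possible with 1 list per cell type, and cell type, library and peak calling cannot be told apart. Intervals below are exact (Clopper-Pearson) 95% intervals over genes or peaks and cover counting error only.

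Myelination is driven by a small network of transcription factors that act in sequence as progenitors leave the cell cycle and differentiate. MYRF, a membrane-bound factor that releases its own DNA-binding part, switches on myelin genes in differentiating cells, and ZEB2 relieves the block that BMP and Smad signalling places on differentiation. The nuclear factor I proteins NFIA, NFIB and NFIX start gliogenesis, MYT1 and ST18 are related zinc finger proteins of neural cells, ZFP488 works with OLIG2, and ZFP536 is a zinc finger repressor of the nervous system. ZFP24, the protein immunoprecipitated here, is itself required for oligodendrocytes to mature. It binds tandem repeats of TCAT, which read as TGAA or ATGA repeats on the other strand.

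The sites that tell most about these genes are given below as they stand on the plus strand of GRCm38 (mm10), read 5′ to 3′ from the RefSeq GRCm38.p6 genome. The first is the OPC peak in intron 1 of Zfp536 (chr7:37760435-37760643), shown because it alone of the 21 peaks holds a tandem TCAT tract of at least 12 bases, which is in capitals. The second is the OPC peak of Zeb2 (chr2:45109873-45110081), shown because it alone overlaps a peak of the other cell type, and the bases common to both peaks are in capitals. The remaining 4 lie within 1 kb of a start, and capitals mark CG dinucleotides: the OLG peak next to the common Zeb2 site (chr2:45109276-45109496), the OPC peak of Nfia past its 5′ untranslated region (chr4:97777968-97778145), the OLG peak of Nfib (chr4:82504460-82504680) and the OPC peak of Zfp488 (chr14:33977879-33978087).
Zfp536, OPC: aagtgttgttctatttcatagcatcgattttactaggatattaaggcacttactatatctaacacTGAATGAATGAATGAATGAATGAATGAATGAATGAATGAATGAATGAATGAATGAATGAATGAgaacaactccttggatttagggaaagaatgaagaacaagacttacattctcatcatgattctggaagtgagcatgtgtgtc
Zeb2, OPC and OLG: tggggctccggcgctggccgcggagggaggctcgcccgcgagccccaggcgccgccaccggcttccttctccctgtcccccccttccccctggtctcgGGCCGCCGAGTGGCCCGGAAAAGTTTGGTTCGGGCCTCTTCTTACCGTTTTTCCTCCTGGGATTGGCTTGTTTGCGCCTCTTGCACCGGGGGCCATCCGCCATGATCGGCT
Zeb2, OLG: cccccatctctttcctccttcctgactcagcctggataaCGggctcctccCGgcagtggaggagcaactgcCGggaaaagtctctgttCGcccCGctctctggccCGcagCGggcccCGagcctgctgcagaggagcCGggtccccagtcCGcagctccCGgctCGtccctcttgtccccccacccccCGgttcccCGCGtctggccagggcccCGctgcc
Nfia, OPC: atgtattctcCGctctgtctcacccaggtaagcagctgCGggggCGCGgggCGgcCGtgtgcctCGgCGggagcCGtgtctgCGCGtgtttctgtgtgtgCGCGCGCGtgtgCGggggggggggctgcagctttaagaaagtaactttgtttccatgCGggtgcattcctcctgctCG
Nfib, OLG: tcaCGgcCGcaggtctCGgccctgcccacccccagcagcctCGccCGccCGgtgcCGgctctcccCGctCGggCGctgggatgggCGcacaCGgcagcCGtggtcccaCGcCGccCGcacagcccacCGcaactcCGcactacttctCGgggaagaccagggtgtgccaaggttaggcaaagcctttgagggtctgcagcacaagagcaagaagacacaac
Zfp488, OPC: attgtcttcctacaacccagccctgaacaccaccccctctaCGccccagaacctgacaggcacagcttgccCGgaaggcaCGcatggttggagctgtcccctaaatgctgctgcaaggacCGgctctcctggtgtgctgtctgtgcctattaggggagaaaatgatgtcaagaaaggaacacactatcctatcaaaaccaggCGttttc
The Zfp536 sequence is AT-rich around its repeat, with a GC content of 32.5% and 1 CG dinucleotide. The sequences of Zeb2, Nfia and Nfib are GC-rich, at 64.6% to 71% GC with 16 to 20 CG dinucleotides each, and that of Zfp488 lies between, at 54.1% GC with 5.

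Peaks lay close to the starts of 5 of the 10 genes, and the cell type differed from gene to gene. Within 10 kb of a start, Nfia, Zfp488 and Zfp536 had a peak in OPC only, Nfib had one in OLG only, Zeb2 had peaks in both, and Nfix, Myrf, Myt1, St18 and Zfp24 had none. That made 4 of 10 genes in OPC (40.0%, 12.2 to 73.8), where 12.7% of all protein-coding genes had such a peak, and 2 of 10 in OLG (20.0%, 2.52 to 55.6), where 6.47% did. In each list taken alone, the share of all genes fell inside the interval of the 10. A peak of either list lay within 10 kb at 5 of the 10 genes (50%, 18.7 to 81.3) and at 17.1% of all genes, just below that interval. The 10 genes were chosen with earlier results of these data known, so this cannot be read as an excess. Within 1 kb, 3 of the 10 had an OPC peak (Nfia, Zeb2 and Zfp488), against 8.20% of all genes, and 2 had an OLG peak (Nfib and Zeb2), against 4.06%. Peaks of both lists within 10 kb were present at 1 of the 10 genes, Zeb2, and at 2.11% of all genes. Over all genes, 3711 had a peak of either list within 10 kb and 458 had peaks of both. A near peak in 1 list only was therefore the usual case.

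With the wider rule of 100 kb or gene body, 7 of the 10 genes had an OPC peak (70.0%, 34.8 to 93.3), against 44.1% of all genes, and 6 had an OLG peak (60%, 26.2 to 87.8), against 24.5%. The share of all genes lay inside the interval of the 10 for OPC and just below it for OLG. The OLG count fell to 2 of 10, and the OPC count to 5 of 10, when each peak was given only to its nearest coding start. The share of all genes under that narrower rule is not given here, so those counts cannot be set beside 24.5% or 44.1%. A peak of either list was found for 9 of the 10 (90%, 55.5 to 99.7), St18 being the exception, and for 52.4% of all genes, again just below the interval. As the 10 genes were chosen with earlier results of these data known, these shares cannot be read as an excess over all genes. The wider rule was met in both lists by Nfix, Zeb2, Myrf and Zfp488, as by 16.1% of all genes. Long genes have long windows, and Nfia, Nfib, St18 and Zfp536 each span over 200 kb. Among the 996 genes of that size the shares were 50.5% for OPC and 23.9% for OLG, close to those of all genes, and 2 and 1 of these 4 had a peak.

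**Figure D1:**
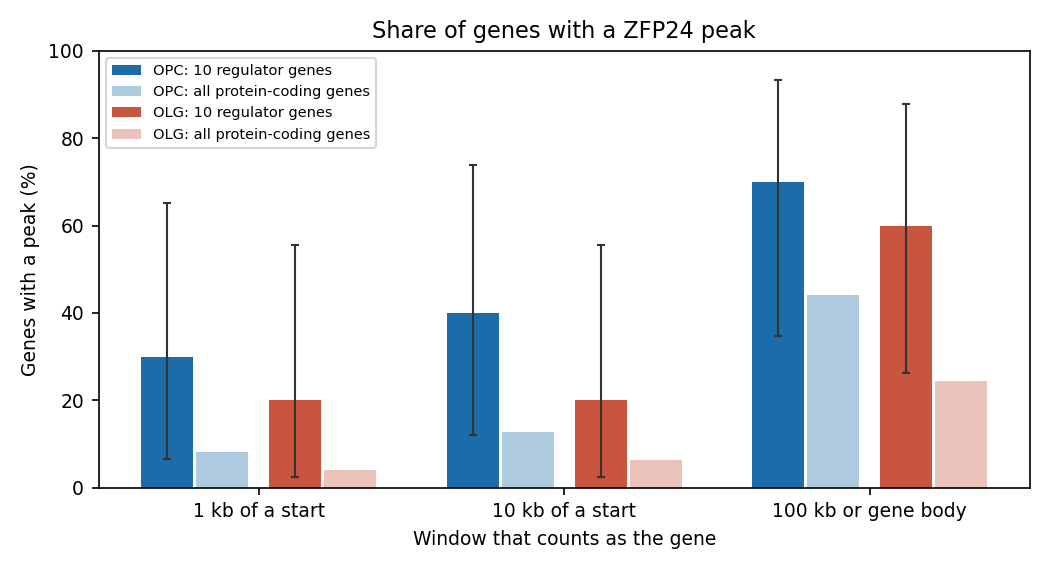
Share of genes with a ZFP24 peak under 3 windows (x axis), in percent (y axis), for the 10 regulator genes (dark bars, with exact 95% intervals as error bars) and for all 21703 protein-coding genes (pale bars), in OPC (blue) and OLG (red). The intervals of the 10 genes hold the share of all genes in both lists at 1 kb and 10 kb and in OPC at 100 kb or gene body, but not in OLG at 100 kb or gene body (26.2 to 87.8 against 24.5%). The 10 genes were chosen with earlier results of these data known, so the latter cannot be read as an excess.

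Many peaks in the wide windows were closer to neighbouring genes. Of the 21 peaks, 13 had the start of one of the 10 genes as their nearest coding start, and the other 8 lay nearer to the start of another gene. In OPC 9 of 12 peaks were nearest to the regulator itself, and in OLG 4 of 9. Gene bodies held 8 of 12 peaks in OPC and 4 of 9 in OLG. All 4 of those OLG peaks were at Nfib or Zeb2. The rule takes in every peak in a gene body, and the share of the whole lists in gene bodies is not given here. The gene body counts therefore say nothing particular about these genes. The windows held 1.33 OPC peaks for each OLG peak, and the whole lists 2.65. That ratio rests on 21 peaks and has no interval, so it does not show a shift towards OLG. Of the peaks nearest to the regulators themselves, 9 were of OPC and 4 of OLG. Among peaks outside the gene bodies, the OPC peak farthest from a start within the 100 kb limit was 83280 bp upstream of Myt1, and the first beyond the limit was 139174 bp downstream of the Myrf start, at Fads2. In OLG the corresponding peaks were 65226 bp downstream of the Zfp24 start and 137874 bp upstream of Nfix, at Mast1.

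**Figure D2:**
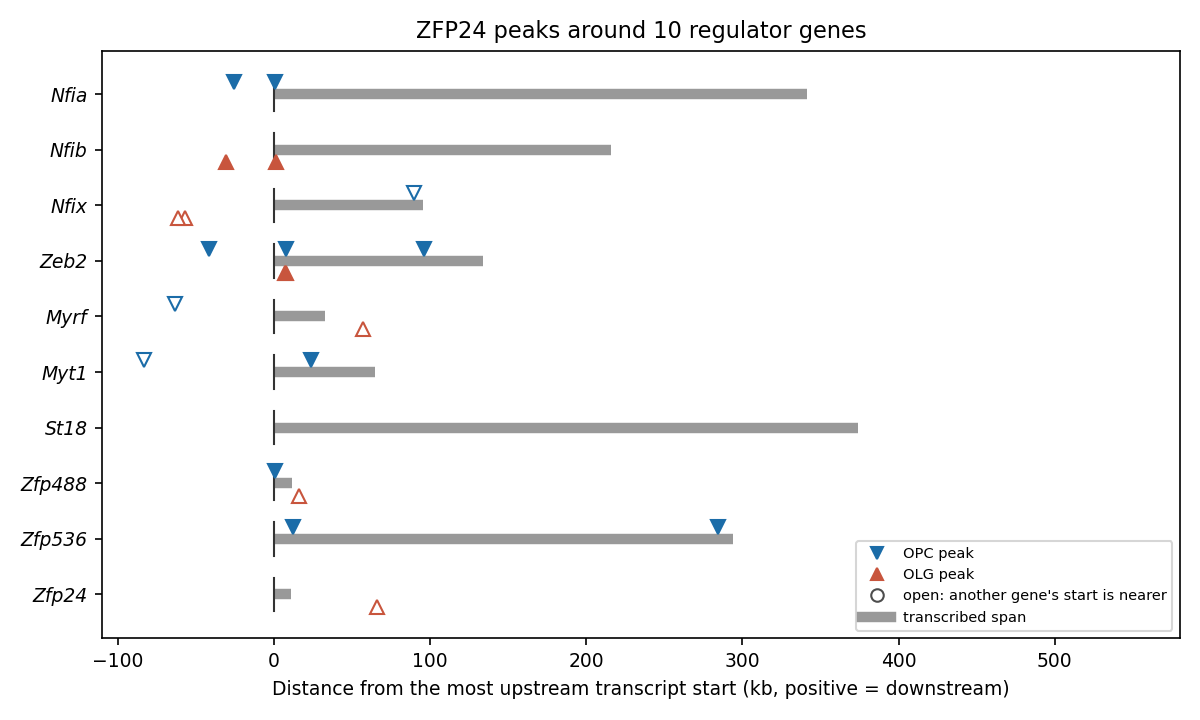
Positions of the 12 OPC (blue, above) and 9 OLG peaks (red, below) along the 10 genes, in kb from the most upstream transcript start, with grey bars for the transcribed span from that start (starts of the basic set). Open symbols mark the 8 peaks nearer to the start of another gene, which include every peak of Nfix, Myrf and Zfp24.

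Zeb2 had the most peaks of the 10 genes. It is a gene of 134 kb on chromosome 2 (44983632 to 45117395, minus strand), and 3 OPC and 2 OLG peaks met the rule. Of all genes, 1.65% had 5 or more peaks of the lists together under it, and 4.87% had 3 or more OPC peaks. A group of 3 peaks, 1 of OPC and 2 of OLG, lay within a span of 916 bp (45109276 to 45110191). The OPC peak and 1 of the OLG peaks shared 111 bp, with their centres 104 bp apart. This was the only place where peaks of both lists overlapped at these genes, or 1 of 12 OPC peaks (8.33%, 0.211 to 38.5) and 1 of 9 OLG peaks (11.1%, 0.281 to 48.2), beside 5.47% and 14.5% of the whole lists. The second OLG peak lay 695 bp from the first. Only 24 of the 21703 genes, or 0.111%, had at least 2 OLG peaks within 1 kb of a start, Zeb2 among them.

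The group sits at the first coding exon of Zeb2. The gene has 8 annotated starts in the basic set, and the centre of the OPC peak was 311 bp downstream of the nearest of them and 7418 bp downstream of the farthest. The overlapping OLG peak was centred in coding exon 3 of an 11-exon transcript, 207 bp from the nearest start, and it held the start codon, 7 bp from its centre. Another Zeb2 transcript, in the comprehensive annotation only, started 5 bp from this centre and 99 bp from that of the OPC peak. The OPC peak lay downstream of the start codon in the direction of the gene, with its nearer edge 7 bp from it and its centre in intron 3. The second OLG peak was wholly in intron 3, 902 bp from the nearest start. The other OPC peaks of Zeb2 were in intron 4, 88787 bp downstream (45021397 to 45021605), and 41659 bp upstream, in an intron of the non-coding gene Gm28643 (45158950 to 45159158). The intron 4 peak was 1414 bp from the start of a further Zeb2 transcript in the comprehensive annotation. Neither peak overlapped an OLG peak, and 60.5% of the 200 bp around the intron 4 peak was repeat-masked sequence.

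The nuclear factor I genes showed a different arrangement at each member. Nfia, on chromosome 4 (97772734 to 98118874, plus strand), had 2 OPC peaks and no OLG peak. Its near peak (97777937 to 97778145) was centred 207 bp downstream of the closest of 5 starts, in intron 1, and covered the start codon, 73 bp from the centre. The start of a transcript of E130114P18Rik, a gene on the opposite strand, was 7 bp from the same centre in the comprehensive annotation, so the peak cannot be given to Nfia alone. The other OPC peak (97751651 to 97751859) was 25853 bp upstream, within the span of E130114P18Rik. The nearest OLG peak was 1831708 bp from an Nfia start, and 12.3% of all genes were farther from one.

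Nfib, also on chromosome 4 (82290173 to 82705750, minus strand), had the reverse. Its 2 peaks were both in the OLG list, and the nearest OPC peak was 666168 bp upstream, with 14.6% of all genes farther from an OPC peak. The near OLG peak (82504460 to 82504680) lay in intron 1, 738 bp downstream of the closest start and 77 bp past the start codon at its edge. The second (82536237 to 82536457) was 30577 bp upstream of the starts in the basic set. It lies inside the span of a longer Nfib transcript of the comprehensive annotation and of the antisense gene Gm11266. Nfia and Nfib thus each had 1 peak within 1 kb downstream of a start and 1 farther upstream, in different lists. As given above, most genes with a near peak had it in 1 list only.

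Nfix, on chromosome 8 (84699876 to 84800344, minus strand), had no peak near a start in the basic set. Its OPC peak (84710753 to 84710961) was in intron 10 of an 11-exon transcript, 62539 bp from a start, and the start of Lyl1, a haematopoietic transcription factor gene, was 9400 bp away. Its 2 OLG peaks were upstream, at 56772 and 61172 bp, and both lay in Farsa, which encodes a subunit of phenylalanyl-tRNA synthetase. One of them was 99 bp from the Farsa start.

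**Figure D3:**
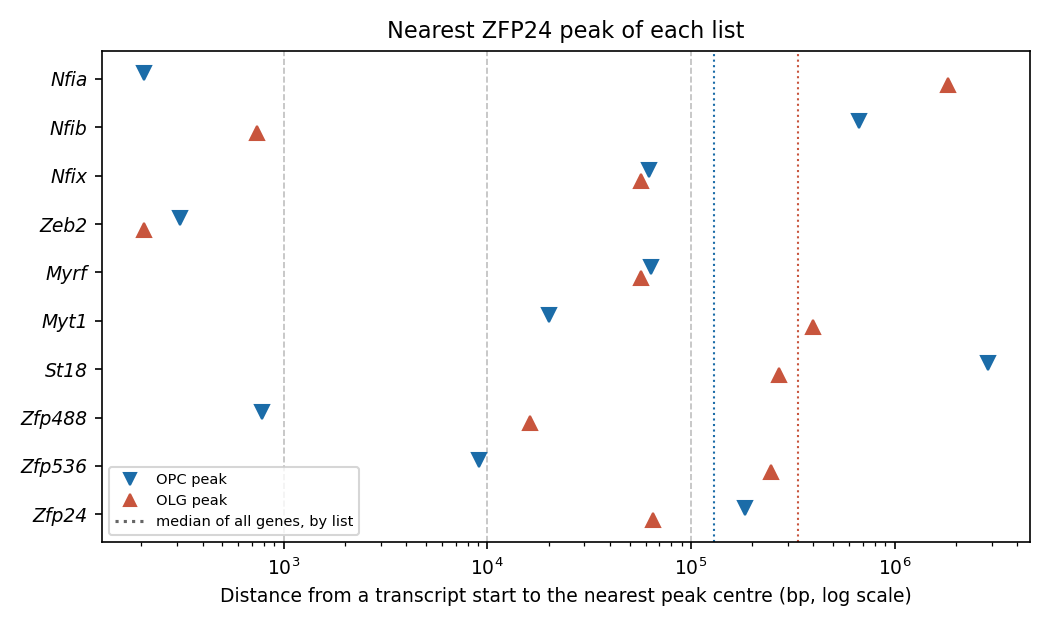
Distance in bp (log scale) from each gene's transcript starts to the centre of its nearest OPC peak (blue) and OLG peak (red), with dashed lines at 1, 10 and 100 kb and dotted lines at the medians of all genes. Nfia and Nfib stand on opposite sides, 207 bp from an OPC peak and 738 bp from an OLG peak, and Zeb2 is near in both lists.

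No ZFP24 peak lay near the start of Myrf, the master regulator of myelin genes. Myrf spans 32.5 kb of chromosome 19 (10208272 to 10240748, minus strand), and the nearest peaks were an OPC peak 63592 bp upstream (10304236 to 10304444) and an OLG peak 56744 bp downstream of its start (10183750 to 10183970). Each sat within 1 kb of the start of a gene of lipid metabolism. The OPC peak was 537 bp from Dagla, which encodes a diacylglycerol lipase, and the OLG peak 921 bp from Fads1, which encodes a fatty acid desaturase. Of all genes, 66.4% were farther from an OPC peak than Myrf, and 83.6% were farther from an OLG peak.

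Of the related zinc finger genes, Myt1 had 2 OPC peaks and no OLG peak, and St18 had no peak of either list. Myt1, on chromosome 2 (181763332 to 181827797, plus strand), had an OPC peak in intron 2, 20044 bp downstream of a start (181787262 to 181787470). Its other OPC peak (181679948 to 181680156) was 83280 bp upstream, intergenic and 258 bp from the start of Tcea2, a transcription elongation factor gene. The nearest OLG peak was 397130 bp away. St18, on chromosome 1 (6487231 to 6860940, plus strand), stretches over 374 kb and had no peak in a window of 474 kb. Its nearest OPC peak was 2864681 bp downstream, and 1.67% of all genes were farther from one. The nearest OLG peak, 272304 bp upstream, was 282 bp from the start of Rb1cc1. The median gene was 129704 bp from an OPC peak and 335106 bp from an OLG peak, so St18 was far from an OPC peak but not from an OLG peak.

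Zfp488 and Zfp536 both had peaks in their first intron in OPC. Zfp488 is a short gene on chromosome 14 (33967070 to 33978764, minus strand), and its OPC peak was 781 bp downstream of the single start. Its coding sequence begins 6779 bp from the centre of that peak, so that the peak is in the non-coding part of the gene. The OLG peak in its window (33962517 to 33962737) was 16137 bp downstream of the start and outside the gene, in a coding exon of Rbp3, a retinoid-binding protein gene. Zfp536, on chromosome 7 (37472135 to 37773641, minus strand), had 2 OPC peaks, in intron 1 at 9085 bp and in intron 5 at 280975 bp (37488545 to 37488753) from a start. The latter was 8663 bp from the start of a further transcript in the comprehensive annotation. Its nearest OLG peak was 246380 bp upstream, 287 bp from the start of Uri1.

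For Zfp24, the gene of the immunoprecipitated protein, no peak of either list lay within 10 kb of a start. It is a gene of 11.1 kb on chromosome 18 (24009702 to 24020810, minus strand). The OLG peak in its window (23954984 to 23955204) was 65226 bp downstream and 389 bp from the start of Zfp397, another zinc finger gene. The nearest OPC peak was 184531 bp upstream and 3 bp from the start of Galnt1. Of all genes, 41.1% were farther from an OPC peak and 82.0% from an OLG peak.

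Near the starts the peaks lay on the transcribed side. Of the 21 peaks, 6 were within 1 kb of a start of one of the 10 genes, 3 in each list, at Nfia, Nfib, Zeb2 and Zfp488. All 6 were downstream of the nearest start in the basic set. For the whole lists, the downstream share among peaks within 1 kb of a coding start was 69.9% in OPC (of 1646) and 75.4% in OLG (of 838). With 3 of 3 in each list (interval 29.2 to 100), the 6 do not stand apart from these shares. Within 200 bp of a start codon, a limit chosen after the values were seen, lay the centres of 4 of the 6 (66.7%), beside 30.5% of the OPC and 33.1% of the OLG peaks within 1 kb of a start. The 4 include both overlapping Zeb2 peaks, and the Nfib peak at 187 bp is just inside the limit. Because the limit followed the values, these shares cannot show an excess.

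The tandem TCAT tract at Zfp536 was among the longest in the genome. It runs for 63 bases without interruption (chr7:37760500-37760562), and reads as TCAT on the minus strand, on which Zfp536 is annotated. The genome (chromosomes 1 to 19 and X) held 4 tracts of 63 bases or more, of which 2 were within 100 bp of an OPC peak centre and 0 of an OLG peak centre. Of the 76 tracts of 48 bases or more, 43.4% were at an OPC peak and 10.5% at an OLG peak. The repeat was in 1 of the 12 OPC peaks (8.33%, 0.211 to 38.5), beside 12.2% of the whole OPC list, and in 0 of the 9 OLG peaks (0 to 33.6), beside 5.71% of the OLG list.

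Other tracts in the windows of these genes carried no peak. The windows, which add up to 3 Mb, held 16 tracts of at least 12 bases, and the Zfp536 tract was the 1 at a peak. Nfix had 2 long ones, of 40 bases in an intron 18865 bp downstream of a start (chr8:84754512-84754551) and of 39 bases at 20494 bp upstream (chr8:84820819-84820857). In the genome, 18.4% of the 1160 tracts of 32 to 47 bases were at an OPC peak and 2.07% at an OLG peak, so that most tracts of this size had no peak. Nfib had 5 tracts, the longest of 23 bases, and 12 of the 16 were of 12 to 15 bases, a class in which 1.80% of genomic tracts were at an OPC peak. Myrf and Zfp488 had no tract in their windows.

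The 21 peaks varied widely in base composition. In the 200 bp around the centre, GC content ran from 32% to 69% over the 12 OPC peaks, with a median of 53.2%, and from 50% to 70% over the 9 OLG peaks, with a median of 57.5%. The medians of the whole lists were 51.5% and 59%. The median number of CG dinucleotides was 4.5 in the OPC and 14 in the OLG peaks, beside 4 and 10 in the lists, and repeat-masked sequence made up a median of 15.8% and 7.5%, beside 5.5% and 0%. The GC-rich end was formed by peaks within 1 kb of a start, such as the OPC peaks of Zeb2 and Nfia at 69% and 66.5%, and the AT-rich end by intronic OPC peaks of Zfp536, Myt1 and Nfix at 32%, 38% and 42%. All 9 OLG peaks were at 50% or above, where 50% was the lower quartile of the whole OLG list.

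**Figure D4:**
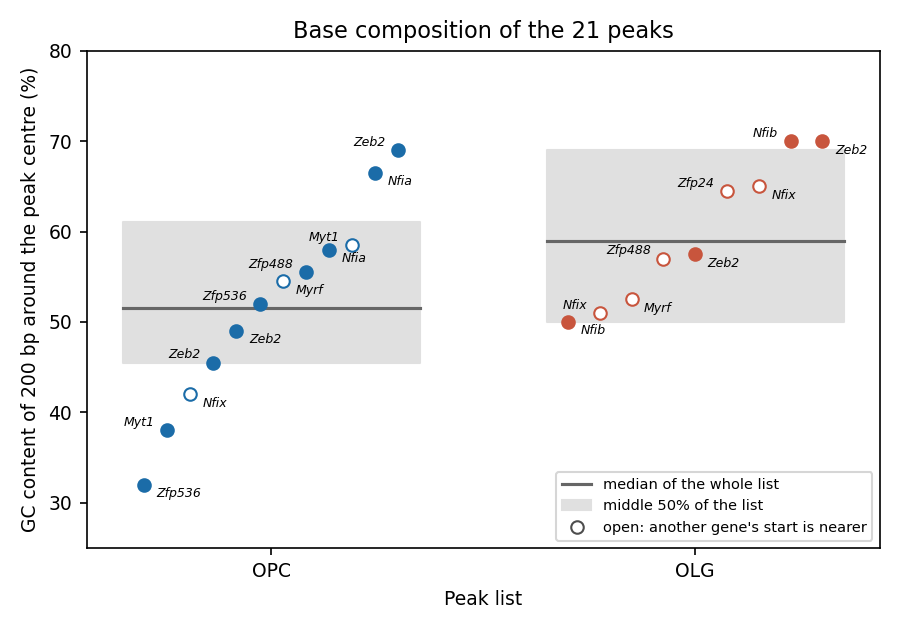
GC content in percent (y axis) of the 200 bp around each of the 12 OPC and 9 OLG peaks, named by gene and ordered by value within each list, over the median and middle 50% of the whole list. The OPC peaks reach down to 32% at the Zfp536 repeat, and open circles mark peaks nearer to the start of another gene.

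Other regulators of the oligodendrocyte lineage, 46 genes listed for comparison and not overlapping with the 10, had OPC peaks near their starts in 15 cases within 10 kb (32.6%, 19.5 to 48) and OLG peaks in 4 (8.70%, 2.42 to 20.8), beside 12.7% and 6.47% of all genes. The share of all genes lay below the interval of these 46 for OPC and inside it for OLG. The lists were drawn up with earlier results of these data known, so the OPC share cannot be read as an excess over all genes. The OPC peaks included those at Klf6, a zinc finger factor gene, 138 bp downstream of a start, at Tcf3, an E-protein gene, 202 bp upstream, and at Id4, which encodes an inhibitor of such proteins, 622 bp downstream. Tcf7l2, the gene of a Wnt effector of differentiation, had an OPC peak at 1912 bp. The OLG peaks included that at Nkx6-2, a homeodomain factor gene of mature oligodendrocytes, at 982 bp. Like Zeb2, Sox4, Pou3f2 and Smarca4 had peaks of both lists within 10 kb. Pou3f2 had its nearest OPC peak 237 bp downstream and its nearest OLG peak 1653 bp upstream, and the distances were 286 bp downstream and 424 bp upstream for Smarca4 and 4286 bp upstream and 1400 bp downstream for Sox4. At none of these 3 genes did the OPC and OLG peaks within 10 kb overlap, whereas those of Zeb2 did. Overlap was not particular to Zeb2, as Thrb, also of the 46, had overlapping OPC and OLG peaks 63621 and 63626 bp upstream.

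Of 5 relatives of the 10 genes, Nfic, Zeb1, Myt1l, Myrfl and Prdm8, 1 had an OPC peak within 100 kb or in its body (20%, 0.505 to 71.6) and 0 had an OLG peak (0 to 52.2), intervals that hold the 44.1% and 24.5% of all genes. The OPC peak was that of Zeb1, 3361 bp downstream of a start. The OLG peak nearest to Zeb1 was 898675 bp away. Nfic, the remaining nuclear factor I gene, lay just outside the limit, 106065 bp from an OPC peak and 106018 bp from an OLG peak. The nearest peak of either list was 170657 bp from Myt1l, 197961 bp from Myrfl and 136327 bp from Prdm8.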

How the data were processed

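Chromatin of formaldehyde-fixed cells was immunoprecipitated with a ZNF24 antibody and sequenced single-end (75 nt), per the labels' protocols. The submitters' processing notes name the build mm10 and the tools BWA and HOMER 4.8.3. That each list holds the peaks of wild-type cells was inferred from the sample descriptions, where the null sample names the same list. The sources used here do not give how peaks were called, at what threshold, or how null and input libraries entered. The authors deposited 2 peak lists with 4 columns (chromosome, start, end, name). All OPC peaks are 209 bp wide and all OLG peaks 221 bp, and the depth is unknown.

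Positions were compared with GRCm38.p6, where 0 peaks ran past the end of the 20 chromosomes, and with the GENCODE M21 basic annotation, using Python 3.11.15, scipy 1.17.1 and pysam 0.24.0. Distances run from the peak centre to the nearest transcript start of a gene, and coordinates are 1-based. Peaks overlapped if they shared 1 bp. Tracts were runs of tandem TCAT of at least 12 bases on either strand in the 200 bp around the centre, and for counts over the genome a tract was at a peak if any part lay within 100 bp of the centre. The steps were tested on simulated data. All 10 genes were named whatever their values, with examples of the listed genes that had a peak within 10 kb, and values of some listed genes are not reported here. The genes and lists were chosen with earlier results of these data known. Alternatives were other windows, transcript sets, tract lengths and overlap rules. A further one kept only the lower-numbered peaks, those with a number in their name below the median of their chromosome. What these numbers mean is not stated, so this setting cannot be taken as a stricter threshold.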

Additional observations from a re-analysis of the deposited data

How the results depend on the processing

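Of 43 recomputed counts, 34 stayed within 1.5 times of the reported value and 9 did not. The number of OLG peaks fell from 9 to 4 with 10 kb in place of 100 kb, to 4 with each peak given to its nearest coding start, and to 2 with the lower-numbered peaks, and the number of genes with one fell from 6 to 2 in each of these 3 settings. The lower-numbered peaks also took the OPC peaks from 12 to 5, the genes with an OPC peak within 10 kb from 4 to 2 and those with an OLG peak within 10 kb from 2 to 0. That setting drops every peak numbered above the median of its chromosome, so a large fall was built in. These falls therefore do not measure dependence on a threshold. All transcripts of the comprehensive annotation, added after seeing the data, gave 6 genes with an OPC peak within 10 kb, since Nfix and Myt1 have further starts 2639 bp and 4825 bp from their intronic peaks. The counts of overlapping OPC peaks and of OPC peaks with a TCAT tract stayed at 1 under the 3 overlap and 3 tract rules tried. With positions alone, a weak peak that missed the authors' threshold cannot be told apart from no binding, so a gene with a peak in OPC alone is not shown to lack binding in OLG, or the reverse. No paired analysis was possible because each group is 1 library.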

Other observations

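A further list of 16 genes was drawn up as reported targets of ZEB2, MYRF or ZFP24 in the lineage. It was thus chosen in part for ZFP24, the immunoprecipitated protein, and shares Id2 and Hes1 with the list of other regulators. Of these 16 genes, 4 had OPC peaks within 10 kb (25%, 7.27 to 52.4) and 2 had OLG peaks (12.5%, 1.55 to 38.3). Both intervals hold the share of all genes, 12.7% in OPC and 6.47% in OLG. The inhibitory Smad genes were the 2 with OLG peaks. Smad7, a gene that ZEB2 is known to activate, had its OLG peak 678 bp upstream of a start and no OPC peak nearer than 45731 bp. Smad6 had an OPC peak 643 bp upstream and an OLG peak 1013 bp downstream, which did not overlap. Prr18 had an OPC peak at 789 bp, Rffl one at 8245 bp and Mag, a myelin adhesion protein gene, one at 6087 bp. Mbp, Cnp and Opalin had no OPC peak in the window, and the nearest OLG peak to Opalin was 11685 bp upstream.

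Motifs of the factors encoded by these genes were looked for on both strands in the 200 bp around each peak centre. CACCTG, which ZEB proteins bind, was in 0 of the 12 OPC peaks (0 to 26.5) and 0 of the 9 OLG peaks (0 to 33.6), beside 16.1% and 16.4% of the whole lists. The palindrome bound by nuclear factor I proteins, TTGGC and GCCAA with 5 bases between, was in none of the 21 peaks and in 0 of 4643 and 0 of 1752 peaks of the lists. TCATTCAT, which any tandem TCAT tract of 12 bases contains, was in 1 of 12 OPC peaks, the Zfp536 site, and in 0 of 9 OLG peaks, beside 13.9% and 6.96% of the lists. RefSeq promoters of GRCm38.p6, 250 bases before to 50 after a start, matched 6 of the 10 genes with 14 promoters, and TCATTCAT was in 0 of them, beside 1.14% of all 32851.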
